A study of Drosophila melanogaster with 14 samples.

Results

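R1A1, Rt1a, Rt1b, Rt1c, baggins, Ivk and I are families of non-LTR retrotransposons of Drosophila melanogaster, and their transcripts were counted in heads of tau transgenic and control flies. Members were the insertions of the deposited transposable element (TE) table whose FlyBase symbol carries exactly 1 of these family names. That gave 225 of the 5392 listed insertions: 26 of R1A1, 25 of Rt1a, 58 of Rt1b, 33 of Rt1c, 34 of baggins, 11 of Ivk and 38 of I. The related family R2 was not analysed here. The members were chosen by name, not by a rule on their values in these libraries, though earlier results of these data were known.

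Non-LTR retrotransposons copy themselves by writing their RNA back into DNA at the place of insertion, a step called target-primed reverse transcription, and they depend on a full-length transcript to do so. R1 elements insert at a fixed site inside the 28S genes of the ribosomal DNA and are transcribed with the ribosomal RNA unit that holds them, and units with an insertion are mostly kept silent. Rt1 elements belong to the same R1 group of reverse transcriptases. The I element is known for hybrid dysgenesis, the sterility that follows when it is brought by the father into eggs that lack the small RNAs against it. Older, defective I copies persist in all strains.

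Total RNA of fly heads was sequenced in 3 control and 3 tau libraries, with 500 ng of RNA from a pool of 6 heads going into each library, so that 18 heads stand behind a genotype. The labels give the control genotype as wild type and the other as tau transgenic. The labels and design text used here do not give the form of tau, its driver, or the age and sex of the flies. Ribosomal RNA was depleted per the labels, and the design text calls the libraries of a genotype independent biological replicates. Because whole heads were pooled, fewer cells with a transcript and less transcript per cell cannot be told apart. DNA of the flies was not examined here. A difference between genotypes in which copies they carry, or how many, thus cannot be told apart from a change in transcript level. The table holds TE insertions only, so markers of head tissue and the tau transcript were not checked.

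TE counts per library were 289818, 277415 and 232572 in control and 76721, 269102 and 331009 in tau, so tau 1 was the shallowest. Members held 2.88% ± 0.0273 of them in the control libraries and 2.71% ± 0.0328 in the tau libraries (SD, n = 3 each). At least 1 count was present for 161 members and 64 had none in any library. Replicate libraries of a genotype differed beyond sampling noise in all 6 pairs (chi-square per degree of freedom 9.25 to 30.7 over families), so none was a copy of another. Levels below are CPM, counts scaled to the depth of TE reads in each library with TMM factors, and a change shared by all TEs would not be seen on this scale. Lengths of the insertions were not used here, so levels are compared between genotypes for 1 family or insertion, never between families.

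R1A1 transcripts rose in tau heads and were the member family that passed the test. The R1A1 counts were 188, 167 and 153 in the control libraries and 62, 248 and 278 in the tau libraries, where tau 1 was shallow. Scaled for depth they stood at 634, 589 and 632 CPM in control and at 819, 946 and 879 CPM in tau. Each tau library lay above each control library. The mean went from 618 ± 25.5 to 881 ± 63.6 CPM (SD, n = 3 each), a ratio of 1.43. The log2 fold change was 0.53 ± 0.0937 SE (95% interval 0.31 to 0.75, adjusted p = 0.00335, edgeR's quasi-likelihood test with Benjamini-Hochberg adjustment over 116 families). Of those 116 families, 36 passed (31.0%), and of the 7 member families 1 did, a smaller share than the background. As reported, 20 of the 36 were higher in tau. The split became 13 higher and 21 lower with library totals and 11 and 17 with the authors' size factors, which moved the median of all families from 0.01 to -0.08 and -0.07.

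The tested copies of R1A1 all had estimates above 0, although none passed on its own. Of its 26 insertions 11 had a count, 15 had none, and 3 were deep enough to test. R1A1{}1124 held most of the reads of the family, 70.3% ± 2.83 in control and 70.5% ± 1.01 in tau. It stood at 430, 422 and 469 CPM in control and at 577, 644 and 617 CPM in tau, with no overlap between the genotypes. Its log2 fold change was 0.48 ± 0.144 SE, which did not pass over the 1249 insertions tested (adjusted p = 0.131). R1A1{}583 (0.81 ± 0.421 SE) and R1A1{}1519 (0.62 ± 0.323 SE) had estimates of the same sign, each with an adjusted p of 0.386. Without R1A1{}1124 the family sum still had a log2 fold change of 0.50 (adjusted p = 0.0314). With each library left out in turn the family kept its call, at 0.48 to 0.56. The related family R1-2 had 2 insertions with 7 counts over the 6 libraries and was too low to test.

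**Figure D1:**
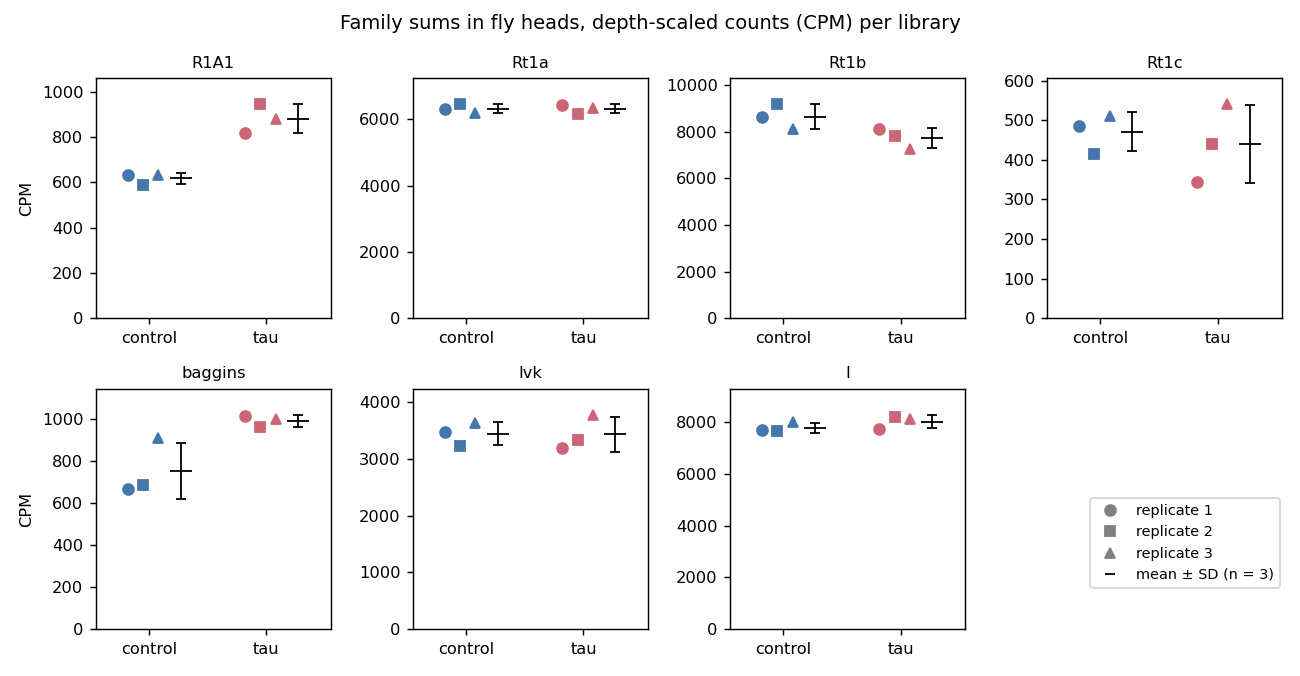
Depth-scaled counts (CPM, linear axes from 0) of the 7 families in each control (blue) and tau (red) library, with mean ± SD of 3 libraries in black. R1A1 goes from 618 to 881 CPM without overlap, baggins separates by a small gap above control 3 at 909 CPM, and the genotypes overlap for the other families.

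The baggins family, placed in the LOA group of non-LTR elements, was the other family without overlap between genotypes, and it missed the threshold. Its level was 668, 684 and 909 CPM in control and 1017, 961 and 999 CPM in tau. Control 3 lay far nearer to the tau libraries than the other control libraries did. The mean was 754 ± 135 CPM for control and 992 ± 28.5 CPM for tau libraries (SD, n = 3 each), with a log2 fold change of 0.40 ± 0.132 SE (95% interval 0.09 to 0.70, adjusted p = 0.0541). Without control 3 the value was 0.55 and the family passed (adjusted p = 0.00617). Without its top copy, baggins{}485, it was 0.42 (adjusted p = 0.0495). In the other 12 alternatives baggins did not pass, at 0.31 to 0.42 (adjusted p 0.053 to 0.171). These include the sum without called insertions, which took no counts from baggins. Leaving out any library other than control 3 gave an adjusted p of 0.106 to 0.171. No overlap was seen for 2 of the 7 member families, against 43.1% of all families tested.

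Counts of baggins were spread thinly, since 24 of 34 insertions had a count and 10 copies made up 90% of the control counts. The 8 insertions tested had a median log2 fold change of 0.34, and 6 of the 8 estimates were above 0. The top copy baggins{}485 had 162 ± 29.9 CPM in control and 205 ± 43.5 in tau, and its genotypes overlapped. The second, baggins{}2811, had 133 ± 12.5 and 115 ± 44.5 CPM and also overlapped. The largest estimate was that of baggins{}5087, at 54.2, 61.4 and 12.6 CPM in control and 201, 161 and 202 CPM in tau. Its 3 tau libraries lay above all control libraries, with a log2 fold change of 2.10 ± 0.525 SE (adjusted p = 0.0893 with edgeR and 0.0108 with DESeq2). The authors' deposited table lists it with an adjusted p of 0.0243. DESeq2 called more insertions over the whole table, 70 higher and 70 lower, against 32 and 42 with edgeR.

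The Rt1 families are R1 relatives with copies of their own, and as sums they did not pass. Rt1a had nearly the same level in every library: 6301, 6456 and 6199 CPM in control and 6444, 6171 and 6331 CPM in tau. Its log2 fold change was -0.0022 ± 0.0499 SE, with a 95% interval of -0.12 to 0.11 (adjusted p = 0.987). Rt1b stood at 8627, 9182 and 8100 CPM in control and at 8135, 7804 and 7264 CPM in tau. Tau 2 and tau 3 lay below all control libraries and tau 1 did not. The log2 fold change of Rt1b was -0.16 ± 0.0679 SE (95% interval -0.32 to -0.0049, adjusted p = 0.105), and it passed only with library totals (-0.24, adjusted p = 0.0335). Rt1c was the lowest in counts, with 26 in tau 1, and its level ran from 416 to 512 CPM in control and from 343 to 541 CPM in tau. The Rt1c interval of -0.39 to 0.37 was the widest of the 7 families (log2 fold change -0.01, adjusted p = 0.987). Changes within that range are not excluded.

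Of the 9 Rt1a copies tested, 1 passed. Rt1a{}957 rose from 49, 90 and 74 counts in control to 86, 294 and 196 in tau. That is 166, 325 and 310 CPM against 1153, 1076 and 611 CPM, with no overlap. Its log2 fold change was 1.82 ± 0.372 SE (95% interval 0.91 to 2.74, adjusted p = 0.0495), and its share of the Rt1a counts went from 4.16% to 15.2%. This call sat at the threshold and was lost in 5 of the 6 fits with a library left out, where the adjusted p ran from 0.0446 to 0.127. The authors' deposited table gives it a log2 fold change of 1.37 and an adjusted p of 2.75e-05. For both called member copies the authors' fold changes were smaller in size than those fitted here (Rt1b{}1288 -3.94 against -10.01), so sizes are not compared. Without Rt1a{}957 the family sum had a log2 fold change of -0.18 (adjusted p = 0.0622), a setting added after the data were seen.

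The copies with the most Rt1a reads did not pass. Rt1a{}1276 held 37.9% ± 2.01 of the family in control and 26.4% ± 14.5 in tau, where tau 1 stood apart at 10.5%. It was at 2472, 2585 and 2235 CPM in control and at 684, 1776 and 2424 CPM in tau (log2 fold change -0.57 ± 0.428 SE, adjusted p = 0.571). Tau 1 had the highest level of the next copy, Rt1a{}1390, at 2360 CPM against 1036 and 1321 in tau 2 and tau 3. Rt1a{}1390 had a mean of 1843 ± 161 CPM in control and 1572 ± 697 in tau. Rt1a{}743 had 1052 ± 83.8 and 1174 ± 237 CPM. The low copy Rt1a{}925, described after its values were seen, had 5, 2 and 5 counts in control and 25, 26 and 25 in tau. It missed the threshold (log2 fold change 3.33 ± 0.762 SE, adjusted p = 0.0721), while DESeq2 gave an adjusted p of 0.00232 and 0.0134 is the adjusted p in the authors' deposited table.

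Rt1b held the member copy with the smallest p. Rt1b{}1288 had 128, 162 and 132 counts in the control libraries and no count in any tau library. Its level in tau was thus at least 116-fold lower (adjusted p = 0.00379). The bound takes 3 counts over the 3 tau libraries as the most that a count of 0 allows, and it reflects counting error, without the variation among libraries. The call held with each library left out (adjusted p 0.00453 to 0.0417). Whether the tau flies carried this copy in their DNA was not tested. In control this copy made up 5.99% of the Rt1b counts, and without it the family sum had a log2 fold change of -0.08 (adjusted p = 0.472), a setting added after the data were seen. Both called member copies, Rt1b{}1288 and Rt1a{}957, are among the 74 insertions that passed of 1249 (5.92%). That is 2 of the 63 members tested (3.17%), a smaller share than the background.

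**Figure D2:**
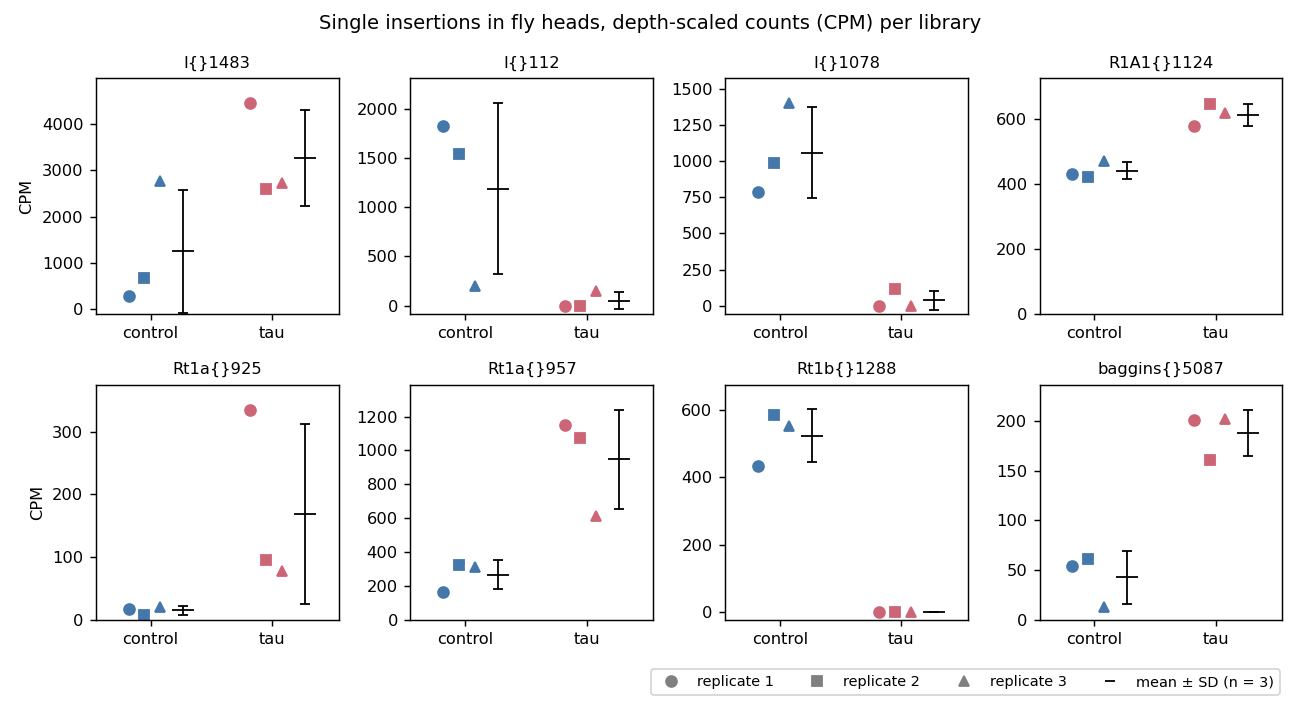
Depth-scaled counts (CPM, linear axes) of single insertions in each control (blue) and tau (red) library, with mean ± SD of 3 libraries: those past the threshold, those with large fold changes and the top copies of R1A1 and I. Rt1b{}1288 is at 0 in all tau libraries and Rt1a{}957 is higher in each tau library, while I{}1483, I{}1078 and I{}112 also vary widely within a genotype.

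The other main Rt1b copies showed smaller or uneven differences. Rt1b{}334 had 1043, 1733 and 854 CPM in control and 121, 502 and 492 CPM in tau, with no overlap. Its log2 fold change of -1.66 ± 0.552 SE missed the threshold (adjusted p = 0.17 with edgeR, 0.0483 with DESeq2, and 0.0279 in the authors' deposited table). The top copy Rt1b{}1218 was steady, at 1577 ± 95.9 CPM in control and 1482 ± 92.7 in tau (log2 fold change -0.09 ± 0.114 SE, 95% interval -0.37 to 0.19). Rt1b{}71 had 1341, 1303 and 2034 CPM in control and 2186, 966 and 816 CPM in tau, so its highest and its 2 lowest values were all in tau. Of the 21 Rt1b insertions tested 11 had estimates above 0 and 10 below, from -10.01 to 2.84. It took 14 copies to reach 90% of the control counts of Rt1b, against 5 for Rt1a and 3 for Ivk. In Rt1c the copies Rt1c{}5065 (228 ± 22.7 CPM in control, 183 ± 45.6 in tau), Rt1c{}269 (101 ± 14.2 and 92.8 ± 26.5) and Rt1c{}10 (51.1 ± 11.5 and 38.2 ± 13.6) overlapped between genotypes.

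The I element and Ivk, a family related to it, had nearly equal sums in both genotypes. The I family was at 7707, 7645 and 7993 CPM in control and at 7725, 8212 and 8140 CPM in tau. All 6 libraries lay within a narrow band, and the genotypes overlapped. The log2 fold change was 0.05 ± 0.051 SE with a 95% interval of -0.07 to 0.17 (adjusted p = 0.555), and it turned negative with library totals (-0.04) and the authors' size factors (-0.02). Ivk had 3447 ± 202 CPM in control and 3435 ± 306 in tau (log2 fold change 0.0050 ± 0.0807 SE, 95% interval -0.18 to 0.19, adjusted p = 0.987). Its sign changed in 9 of 14 alternatives.

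Beneath the steady I sum, single copies carried very different amounts from library to library. I{}1483, the copy with the most counts, had 86, 187 and 662 counts in control and 332, 711 and 872 in tau. Its share of the I counts ran from 3.76% to 34.2% in control and from 33.0% to 56.8% in tau. The log2 fold change of 1.38 ± 0.817 SE did not pass (adjusted p = 0.44). Without I{}1483 the family sum had a log2 fold change of -0.45 (adjusted p = 0.122). The sign of the I family was not settled with this copy kept in either, since its interval of -0.07 to 0.17 spans 0.

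The copies I{}1078 and I{}112, singled out after their values were seen, went the other way. I{}1078 had 233, 274 and 336 counts in control and 0, 31 and 0 in tau (log2 fold change -4.59 ± 1.31 SE, adjusted p = 0.116). It passed without tau 2, the tau library that held its counts (adjusted p = 0.0123), and with DESeq2 as run here (0.0219). The authors' deposited table gives I{}1078 a log2 fold change of -0.27 and an adjusted p of 0.64. With any other library left out it did not pass (adjusted p 0.118 to 0.251). I{}112 had 540, 428 and 47 counts in control and 0, 0 and 47 in tau, with a log2 fold change of -4.35 ± 1.55 SE (adjusted p = 0.20). Its adjusted p in the authors' deposited table is 0.743. The libraries in which I{}112 was low, control 3 and all tau libraries, were those in which I{}1483 was high. Summed, these 3 copies had 3498 ± 774 CPM in control and 3344 ± 962 in tau, with overlap. The sum was uneven, at 2909, 3209 and 4375 CPM in control and 4452, 2716 and 2863 in tau. Because the 3 were picked from these same values with opposite signs, their similar means are a description only. The sequences of these copies were not compared, and whether reads were passed between copies in the counting was not tested.

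**Figure D3:**
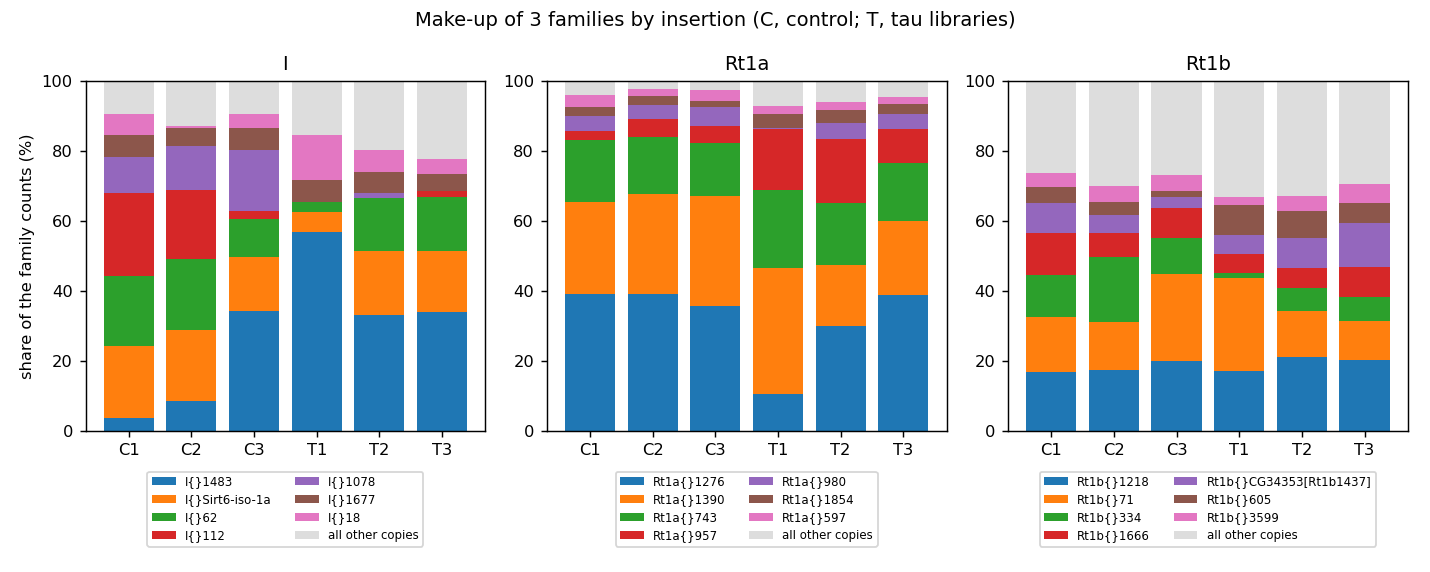
Share (%) of the counts of I, Rt1a and Rt1b held by each of the 7 insertions with the highest mean CPM in the 3 control (C) and 3 tau (T) libraries, with all other copies in grey. The share of I{}1483 runs from 3.76% in control 1 to 56.8% in tau 1, while the I sum stays between 7645 and 8212 CPM.

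Further I copies also varied. I{}Sirt6-iso-1a, whose symbol carries the name of Sirt6, a gene of arm 3R for a protein deacetylase, had 1592, 1581 and 1247 CPM in control and 442, 1453 and 1402 CPM in tau. I{}62 had 1551, 1577 and 883 CPM in control and 241, 1197 and 1227 CPM in tau. In both copies tau 1 was the lowest library by far, and neither passed (adjusted p = 0.718 and 0.713). Ivk behaved more evenly. Ivk{}1704 held 51.7% ± 1.85 of the family in control and 59.6% ± 5.35 in tau, at 1804 ± 50 and 2029 ± 363 CPM. Ivk{}1098 had 1029 ± 124 and 934 ± 38.5 CPM. Ivk{}206 was lower in each tau library, at 375, 410 and 318 CPM against 593, 495 and 628 CPM, and missed the threshold (log2 fold change -0.64 ± 0.186 SE, adjusted p = 0.123). Without Ivk{}1704 the Ivk sum had a log2 fold change of -0.28 (adjusted p = 0.0703).

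Spread between libraries was far larger for copies than for families. The biological coefficient of variation, the spread between replicates beyond counting error, was 9.31% in common over families and 42.2% over insertions. For the 7 member families it ran from 4.93% (R1A1) to 9.69% (Rt1c). For their 63 tested insertions it had a median of 28.8% and ran from 9.31% to 180%, beside a median of 26.6% over all 1249 insertions. In 9 of the 225 member insertions a library had 0 counts where at least 10 were expected from the others of its genotype, and another of that genotype had at least 30; the same held for 110 of all 5392 insertions (2.04%). Copies of I among these 9 were I{}1078, I{}112, I{}120 and I{}929.

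**Figure D4:**
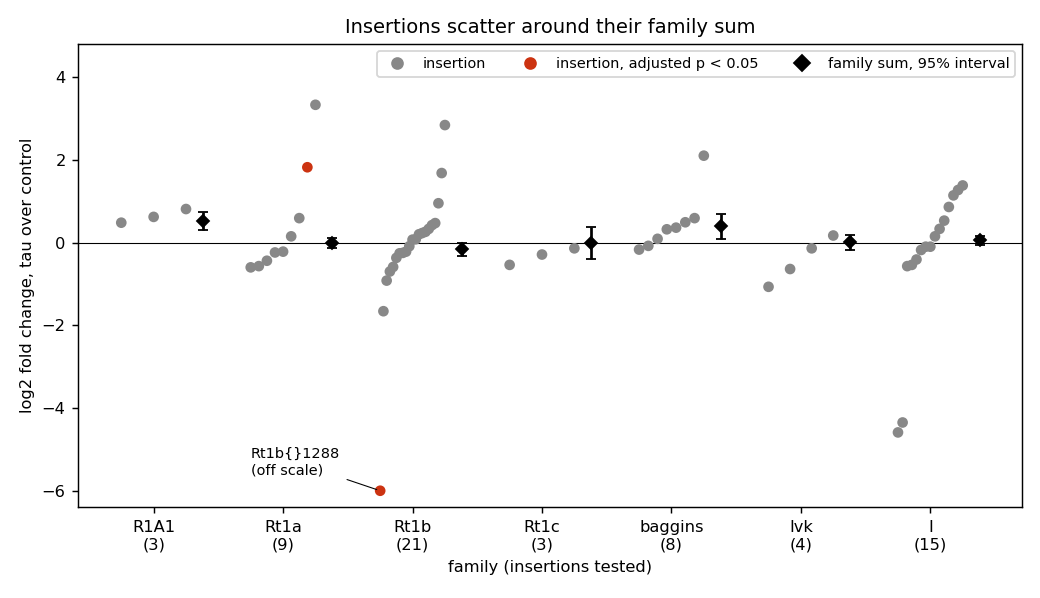
Log2 fold change (tau over control) of each tested insertion by family (grey, red where the adjusted p is under 0.05), with the family sum and its 95% interval as a diamond. Insertions of Rt1a, Rt1b and I spread to both sides of a family value near 0, the 3 of R1A1 lie above 0, and Rt1b{}1288 is drawn at the lower edge because it is off scale.

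Over the 63 member insertions tested, 32 had estimates above 0 (50.8%), beside 613 of all 1249 (49.1%). Their median log2 fold change was 0.07 with an interquartile range of 0.87, beside -0.01 and 0.77 over all insertions. Groups did not overlap for 19 of the 63 (30.2%), 10 higher and 9 lower in tau, beside 29.2% of all insertions. Of the 19, 7 belonged to Rt1b, 5 of them lower, and all 7 in R1A1, Rt1a and baggins were higher. The 2 in Ivk were lower, as were 2 of the 3 in I. The 63 tested insertions held 95.7% of the member counts, and 162 members were not tested. A copy seen in 1 genotype alone could pass the filter through that genotype, so these shares do not describe all members. Of the members, 79 have an adjusted p in the authors' deposited table, and 5 of these lie under 0.05, 3 higher and 2 lower. The matching share over all insertions of that table was not taken, so this count has no background beside it.

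Non-LTR families outside the members moved in both directions. Of 33 listed families 28 were in the table and 25 were tested, of which 3 rose, 3 fell and 19 did not pass, with a median log2 fold change of -0.03. The rises were those of the telomeric elements TART-A (2.61) and HeT-A (0.60) and of G6 (0.88). The falls were those of Doc (-0.91), Juan (-0.40) and jockey (-0.32).

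The families whose log2 CPM followed each member most closely over the 6 libraries are given as a description, since all share the same libraries and genotypes. For R1A1 they were the LTR elements Stalker2 (Pearson r = 0.984) and rover (0.980), which rose by 0.38 and 0.51 on the log2 scale. For baggins they were invader1 (0.919) and G2 (0.916), which did not pass either. Rt1b lay closest to pogo (0.916) and Burdock (0.903), both of which fell. I lay closest to Fw3 (0.956) and HB (0.908), and Ivk to rooA (0.901) and invader5 (0.848). Rt1c lay closest to HMS-Beagle2 (0.907) and invader5 (0.884), and Rt1a to G5A (0.837) and GATE (0.778).

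**Figure D5:**
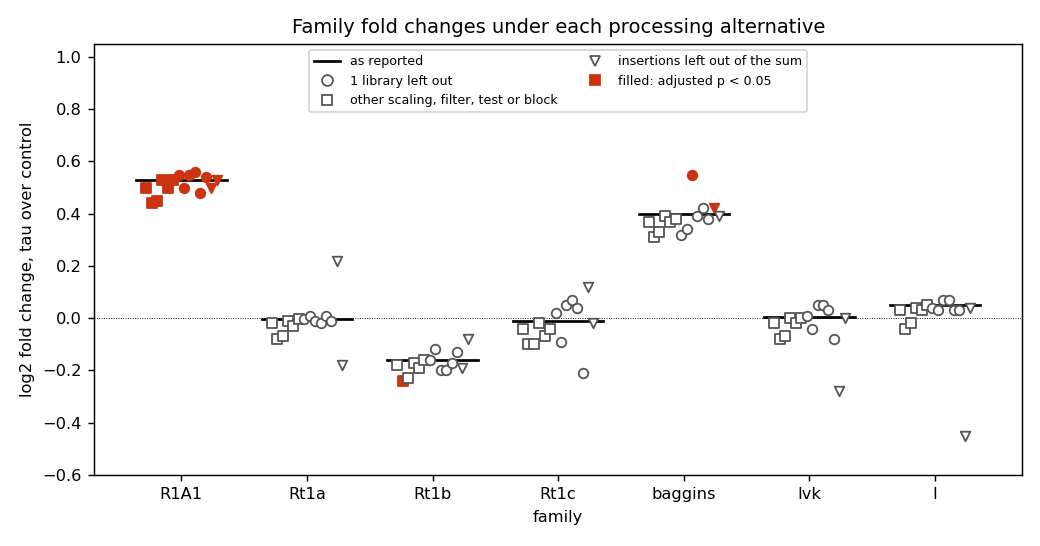
Log2 fold change (tau over control) of each family sum as reported (black line) and under each alternative, filled red where the adjusted p is under 0.05. R1A1 stays between 0.44 and 0.56 with an adjusted p under 0.05 in each, whereas I drops to -0.45 when its top copy is left out.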

How the data were processed

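TE reads had been picked out by the authors using sortmerna and the TEs of FlyBase release 6.12, per the design text, and the submitters' processing notes name Trimmomatic 0.36 and DESeq2 1.14.1. The authors deposited raw read counts per insertion and library, not normalised, beside a mean of normalised counts (a signal), the log2 fold change and its raw and adjusted p-values. The counter, its strand setting and its handling of reads that match several copies were not stated, so single copies are less certain. Some copies had the same counts: I{}129, I{}1436, I{}1441 and I{}188 each had 0, 0 and 0 in control and 7, 1 and 17 in tau. Whether such reads were counted for more than 1 copy, and so repeatedly in family sums, was not tested.

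Insertion symbols were matched for 5390 of 5392 IDs, in 123 families. Counts were tested with edgeR 4.0.16 in R 4.3.3 (quasi-likelihood F-test, TMM factors, default low-count filter, two-sided, Benjamini-Hochberg adjustment over all features tested, threshold 0.05), over 116 families and 1249 insertions. Standard errors were derived from the F statistic. DESeq2 1.42.0, other scalings, no filter, a replicate block and left-out libraries were alternatives. The authors' size factors were recovered from their deposited means. Scripts were tested on simulated data. Named were all member families, member insertions past the threshold and the 3 with the highest mean CPM per family, and the 2 most similar families of each. Members and lists were chosen with earlier results of these data known. The piRNA table was not used, since its entries could not be linked to these insertions. The 95% intervals of fold changes come from the fit and include the spread between libraries, whereas the floor for counts of 0 covers counting error only.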

Additional observations from a re-analysis of the deposited data

How the results depend on the processing

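The R1A1 call held in all 14 alternatives (0.44 to 0.56, adjusted p 0.00282 to 0.0314). Among these, the sum without called insertions took no counts from R1A1, Rt1c, baggins, Ivk or I, which had no called insertion. For these families it is not a separate check. The count of member families higher in tau was 1, and 2 with family sums that lack the top insertion (baggins joined). The count lower was 0, and 1 with library totals (Rt1b). With each library left out these counts were 1 to 2 higher (2 without control 3) and 0 to 0 lower. Member insertions higher numbered 1 as reported, 0 with library totals, with no low-count filter and with the replicate block, 3 with DESeq2, and 0 to 1 with a library left out (1 without tau 3). Those lower numbered 1, 0 with the replicate block, 3 with DESeq2, and 1 to 2 with a library left out (2 without tau 2, with I{}1078). Over the whole table the block left 6 insertions higher and 3 lower and DESeq2 gave 70 and 70, against 32 and 42 as reported. Same-numbered libraries did not deviate together (correlations of -0.026, 0.09 and 0.272 over families), so the numbers were not taken as pairs. Under the block R1A1 had 0.53 (adjusted p = 0.0139), Rt1a{}957 1.82 (0.201) and Rt1b{}1288 an adjusted p of 0.146.

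Values near 0 changed sign, and the cause was not tested. Ivk had -0.02 with RLE factors and with DESeq2, -0.08 with library totals, -0.07 with the authors' size factors, -7.83e-04 with no filter, -6.47e-04 with the replicate block, -0.28 without its top insertion, and -0.08 to 0.05 with a library left out. I had -0.04 with library totals, -0.02 with the authors' size factors and -0.45 without its top insertion. Rt1a had 0.22 and Rt1c 0.12 without their top insertion, and -0.02 to 0.01 and -0.21 to 0.07 with a library left out. With a library left out Rt1a{}743 had -0.02 (without tau 1) to 0.24, Rt1b{}71 -0.80 to 0.0041 (without tau 3) and Rt1c{}269 -0.33 to 0.10 (without tau 2). The planned piRNA comparison was not run. Tau 1, with 34 member insertions at 10 or more counts against 55 to 70 in the other libraries, limits what can be seen for low copies.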

Other observations

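Some member insertions outside the test had reads in few libraries, and they were picked after their values were seen. Rt1b{}1356 had 0 counts in each control library and 28, 84 and 0 in tau, and Rt1b{}814 had 115 counts, all in tau 3. Rt1b{}337 was counted 0, 42 and 6 times in the control libraries and not at all in tau. I{}929 had 0, 10 and 0 counts in control and 0, 0 and 117 in tau. Rt1b{}CG34353[Rt1b1437], whose symbol carries the name of the gene CG34353 on arm 3R, was tested and had 220, 133 and 66 counts in control and 34, 178 and 286 in tau, with overlap once scaled for depth.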
